A study of Mus musculus with 4 samples.

Results

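The survival and death genes of the Bcl2 family, 10 of the 32285 genes in the matrices, were taken by symbol and followed through 5 gated cell classes of mouse DLA tumors. They are the anti-apoptotic genes Bcl2, Bcl2l1, Mcl1 and Bcl2a1b, the effectors Bax and Bak1, and the BH3-only genes Bcl2l11, Bbc3, Pmaip1 and Bid. All 10 had at least 1 UMI in gated cells of every library. The 4 samples came from tumors grown in Swiss albino mice after intraperitoneal transplantation of DLA (Dalton's lymphoma ascites) cells. Control 1 and Control 2 carried the transplanted cells and no drug by their labels, and SP11 1 and SP11 2 carried the same cells and came from mice given SP11, an HSP90 inhibitor, orally at 30 mg/kg for 17 days. All 4 tumors share the transplanted line and the host strain, and neither genotype nor age is labelled. Each tumor gave 1 droplet library of 3′ ends, so the library is the replicate and n = 2 in each group.

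Cells live or die through this family by protein contacts at the outer membrane of mitochondria. Bax and Bak1 form the pores that release cytochrome c, the anti-apoptotic proteins hold them and the BH3-only proteins in check, and the BH3-only proteins bring stress signals to both. Lymphocytes are known for their need of Bcl2, and neutrophils for their need of Mcl1 and the A1 proteins, of which Bcl2a1b codes for one.

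The contact is made through a short helix, the BH3 domain. Its core was searched in the coding sequence of 1 transcript of each gene (GENCODE M21, GRCm38) as 6 codons in frame, leucine, any 2 residues, then isoleucine, valine, methionine or alanine, then glycine or alanine, then aspartate, and 5.61% of the 21747 protein-coding genes held such a stretch. The lines show it for 8 members, because this is the part that the survival and the death proteins have in common. Capitals mark the 18 bases of the core, read 5′ to 3′ on the coding strand, with 6 bases on each side.
Bcl2: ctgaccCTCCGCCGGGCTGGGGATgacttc
Bcl2l1: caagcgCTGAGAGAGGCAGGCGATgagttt
Mcl1: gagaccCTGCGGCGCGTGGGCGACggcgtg
Bax: gagtgtCTCCGGCGAATTGGAGATgaactg
Bak1: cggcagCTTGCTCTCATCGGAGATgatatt
Bcl2l11: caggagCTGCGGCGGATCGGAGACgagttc
Bbc3: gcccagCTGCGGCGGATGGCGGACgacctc
Bid: agacatCTCGCCCAAATAGGCGATgagatg
The Bcl2 core lies at chr1:106712584-106712601 on the minus strand in exon 1 of 2, and that of Bcl2l1 at chr2:152829706-152829723 on the minus strand in exon 2 of 3. The Mcl1 core lies at chr3:95659436-95659453 on the plus strand in exon 1 of 3, that of Bax at chr7:45466006-45466023 on the minus strand in exon 3 of 6, and that of Bak1 at chr17:27022540-27022557 on the minus strand in exon 4 of 6. The core of Bcl2l11 lies at chr2:128147150-128147167 on the plus strand in exon 3 of 4, that of Bbc3 at chr7:16313773-16313790 on the plus strand in exon 3 of 4, and that of Bid at chr6:120897298-120897315 on the minus strand in exon 4 of 6. Pmaip1 held 2 matches, and no sequence is shown for it. Bcl2a1b, at chr9:89199209-89207827 on the plus strand, held no match to these letters. Its transcript is identical to that of Bcl2a1d at 99.1% and to that of Bcl2a1a at 98.2% of aligned bases, so the split of reads among these copies is uncertain.

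Cells were gated by UMIs of marker genes, keratins Krt8 and Krt18 for tumor cells and lineage genes for B, T, myeloid (monocyte and macrophage) and neutrophil cells, and 3727 of 4404 kept cells passed exactly 1 gate. The matrices hold 9646197 to 13632163 UMIs per library. The tumor gate took 841, 502, 1190 and 556 cells in Control 1, Control 2, SP11 1 and SP11 2. The 22, 16, 75 and 85 myeloid cells make the only other class with at least 10 cells in each library. B cells numbered 148 and 140 in the SP11 libraries and 1 and 0 in the controls, T cells 14 and 77 against 10 and 1, and neutrophils 6 and 37 against 4 and 2. The labels call the cells lymphoma, whereas the gated tumor cells held 2509 to 4732 keratin CPM (UMIs per 1000000 UMIs of the class) and 0.221 to 6.34 CPM of the leukocyte gene Ptprc, so they are called tumor cells by their gate only. Of 5332 barcodes, 1875 occurred in more than 1 library, with 60 to 359 shared by a pair of libraries. Results without them stand beside the first result of each kind and, where they moved, in the closing section. Fewer cells that express a gene and less RNA per cell cannot be told apart in the sums used here.

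Mcl1 led the anti-apoptotic genes in tumor cells, B cells and neutrophils, shared the lead with Bcl2a1b in myeloid cells, and had no fixed rank in T cells. These are shares of the UMIs of the 4 anti-apoptotic genes, counted at the 3′ end and not divided by transcript length. In tumor cells Mcl1 held 62.8%, 69.2%, 58.8% and 58.6% of them in Control 1, Control 2, SP11 1 and SP11 2, and Bcl2l1, which codes for Bcl-xL, held 34.2%, 25.7%, 34.5% and 35.2%. The order was Mcl1, Bcl2l1, Bcl2, Bcl2a1b in all 4 libraries, and Bcl2 never held more than 4.52% (exact 95% interval 3.71% to 5.45%, for counting error only). Without the shared barcodes the mean share of Mcl1 was 62.8% in place of 62.4%.

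B cells carried almost no Bcl2l1. Mcl1 held 80.0% of the 115 UMIs in SP11 1 and 73.5% of the 162 UMIs in SP11 2, Bcl2a1b 14.8% and 13.0%, and Bcl2 5.22% and 13.0%. Bcl2l1 had 0 of 115 UMIs in SP11 1, which allows a share of up to 2.61%, and 1 of 162 in SP11 2.

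In T cells the leading gene changed with the library. The 77 T cells of SP11 2 held 24 UMIs of Bcl2 (42.9%, 29.7% to 56.8%), 20 of Mcl1, 12 of Bcl2a1b and 0 of Bcl2l1. The 14 T cells of SP11 1 held 10 such UMIs, 4 of them Bcl2l1 and none Bcl2, and the 10 T cells of Control 1 held 3. The 0 of 10 UMIs of Bcl2 in SP11 1 allow a share of up to 30.0%, which just reaches the interval of SP11 2. For Bcl2l1 the exact intervals, 12.2% to 73.8% in SP11 1 and up to 6.38% in SP11 2, do not overlap. They cover counting error only, and a difference between these libraries was not tested.

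Myeloid cells divided their UMIs between Mcl1 and Bcl2a1b. Mcl1 held 59.0%, 46.1%, 55.2% and 62.4% in Control 1, Control 2, SP11 1 and SP11 2, and Bcl2a1b 39.3%, 51.3%, 39.7% and 33.6%, so that Bcl2a1b led in Control 2 alone. Bcl2 had 0, 0, 1 and 1 UMIs. When UMIs were divided by transcript length (3418 bases for Mcl1, 817 for Bcl2a1b), Bcl2a1b led in all 4 libraries, with 67.6% to 81.2%. A UMI at the 3′ end counts a transcript once whatever its length, so the undivided shares are the measure here. Neutrophils, with enough cells in SP11 2 alone, held 70 UMIs of Mcl1 among 89 (78.7%, 68.7% to 86.6%), 16 of Bcl2a1b, 3 of Bcl2l1 and 0 of Bcl2, which allows a Bcl2 share of up to 3.37%.

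**Figure D1:**
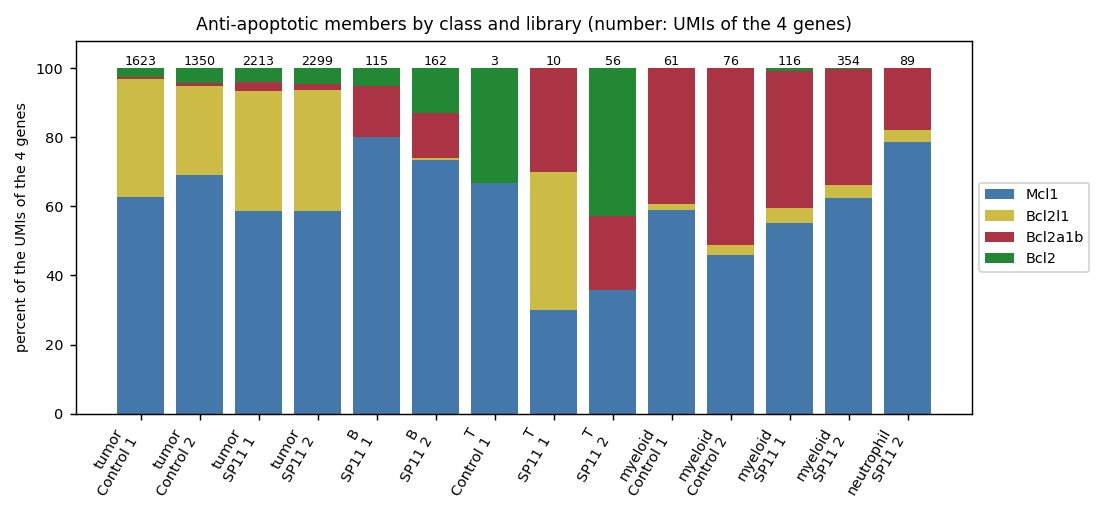
Share of the UMIs of Bcl2, Bcl2l1, Mcl1 and Bcl2a1b (vertical axis, percent) held by each gene in each class and library with at least 10 cells, with the number of UMIs above each bar. Bcl2l1 is visible in every tumor bar and nearly absent from B cells, and Bcl2a1b takes 33.6% to 51.3% of the myeloid bars.

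Levels were then compared between classes within the SP11 libraries, which hold all 5 classes, with the library as a block. The tests draw on a spread shared by all genes, so very small p-values do not measure a gene's own spread between libraries. Of the 10 members, 8 passed the filter on low counts, and Bbc3 and Pmaip1 did not. Bcl2 passed it through B and T cells of SP11 2, Bak1 through myeloid cells and Bid through neutrophils. Bcl2a1b passed it through the immune classes alone, and Bcl2l11 through myeloid cells, neutrophils and T cells of SP11 1. Tumor cells lay below the limit for each of these genes. Their calls as higher all fell in classes that brought them through the filter, so those calls were not independent of it. Over the 3735 genes tested, the median log2 fold change against tumor cells was -0.19 for B, -0.52 for T, -0.19 for myeloid and -1.16 for neutrophil cells after TMM scaling. Differences are given as fitted, and the value relative to the class's median gene is added for the members that passed. The split of calls moved with the scaling, since 987 of 2224 calls in B, 657 of 1609 in T and 634 of 1642 in neutrophil cells were higher with TMM, against 988 of 1793, 738 of 1131 and 880 of 1274 with DESeq2. By edgeR's adjusted p, 5 of 8 members changed in B cells where 59.5% of all genes did, 2 of 8 in T cells where 43.1% did, 4 of 8 in myeloid cells where 62.6% did, and 3 of 8 in neutrophils where 44% did. The counts are thus near or below the background, and the directions and sizes are what follows.

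Mcl1 stood at 112 and 116 CPM in tumor cells of SP11 1 and SP11 2, at 592 and 485 in B cells, at 252 and 260 in T cells, at 568 and 1026 in myeloid cells and at 2493 in neutrophils of SP11 2. Each of these classes lies above the tumor cells in both libraries, with 3 and 20 UMIs behind the T cell values. Mcl1 was higher in B cells by 2.16 ± 0.30 (log2, SE, edgeR adjusted p = 3.54e-12), in myeloid cells by 2.58 ± 0.30 (7.30e-17) and in neutrophils by 3.63 ± 0.36 (2.26e-22), while the T cell difference of 0.57 ± 0.45 did not pass (adjusted p = 0.319). Relative to the median gene these were 2.35 in B, 2.77 in myeloid, 4.80 in neutrophil and 1.08 in T cells.

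Bcl2a1b ranged further. It stood at 5.06 and 3.17 CPM in tumor cells of SP11 1 and SP11 2, at 109 and 85.6 in B cells, at 252 and 156 in T cells, at 408 and 552 in myeloid cells, and at 570 in neutrophils of SP11 2. No class overlaps the tumor cells. The edgeR differences from tumor cells were 4.44 ± 0.44 in B (adjusted p = 4.96e-23), 4.86 ± 0.66 in T (6.28e-12), 6.67 ± 0.33 in myeloid (1.94e-88) and 6.32 ± 0.67 in neutrophil cells (3.54e-19), or 4.64, 5.37, 6.86 and 7.49 relative to the median gene. Bcl2a1b passed the filter on low counts through these immune classes alone, so the calls were not independent of the classes where it is high.

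Bcl2 was higher in lymphocytes than in tumor cells of the treated tumors. It stood at 7.63 and 8.92 CPM in tumor cells of SP11 1 and SP11 2, at 38.6 and 85.6 in B cells, and at 312 in T cells of SP11 2, with no UMI in the 14 T cells of SP11 1. B cells exceeded tumor cells in both libraries, and T cells did so in SP11 2. The 0 UMIs in T cells of SP11 1 allow up to 252 CPM, so that library gives no direction. The difference was 2.79 ± 0.58 in B cells (edgeR adjusted p = 6.40e-06) and 4.14 ± 0.66 in T cells (5.64e-09), or 2.98 and 4.66 relative to the median gene. Bcl2 passed the filter on low counts only through B and T cells of SP11 2, so both calls were not independent of the classes where it is high. The T cell value rests on SP11 2. In SP11 1 alone the log2 CPM difference of -3.43 is no fit and is set by the small count added to 0 UMIs. Myeloid cells held 2 Bcl2 UMIs in both SP11 libraries together, a ratio to tumor cells of 0.737 (exact interval 0.0886 to 2.70, counting error only). Neutrophils held none, so both lie in a range where a difference from tumor cells was not detectable.

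Bcl2l1 ran the other way in B cells. It stood at 65.5 and 69.4 CPM in tumor cells of SP11 1 and SP11 2 against 0 and 4.07 in B cells (edgeR adjusted p = 5.68e-07). With 1 UMI in B cells, the pooled level in tumor cells was 27.0 times theirs, with an exact interval of 4.85 to 1069. Myeloid cells, at 44.4 and 60.3 CPM, differed from tumor cells by -0.50 ± 0.46 (adjusted p = 0.342, edgeR), which does not pass.

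**Figure D2:**
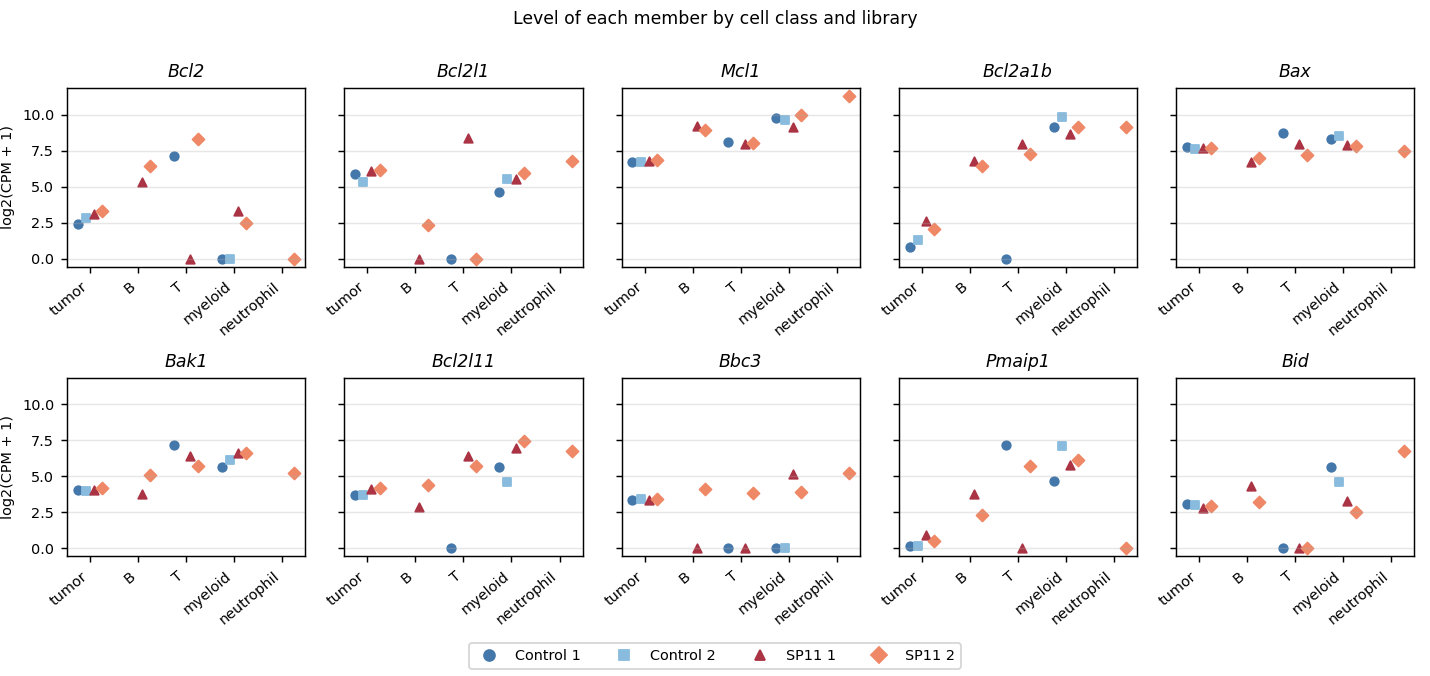
Level of each member, as log2(CPM + 1) on the vertical axis, in the 5 classes, with 1 point per library that has at least 10 cells of the class. Bax spans 103 to 420 CPM over all points, Mcl1 is lowest in tumor cells, and points at 0 are libraries with no UMI of the gene.

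Among the effectors, Bax stood at 207 and 203 CPM in tumor cells of SP11 1 and SP11 2 and at 240 and 227 in myeloid cells, with a log2 difference of -0.03 ± 0.29 (edgeR adjusted p = 0.933). B cells, at 103 and 126 CPM, were lower by -0.89 ± 0.31 (adjusted p = 0.00883), or -0.69 relative to the median gene, and 5 of 9 alternative fits made this call again. Bak1, the other pore former, was higher in myeloid cells by 2.35 ± 0.50 (edgeR adjusted p = 1.16e-05, 2.55 relative to the median gene), with 97.6 and 97.4 CPM there against 15.6 and 17 in tumor cells. The groups of values do not overlap. Without the myeloid sums Bak1 would not have passed the filter on low counts. Its call was thus not independent of the class where it is high. Differences of Bak1 in the other classes did not pass.

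Of the BH3-only genes, Bcl2l11, which codes for Bim, was higher in myeloid cells, at 124 and 172 CPM against 16.2 and 17 in tumor cells of SP11 1 and SP11 2 (2.95 ± 0.44, edgeR adjusted p = 1.50e-10, 3.15 relative to the median gene). Bcl2l11 passed the filter on low counts through immune classes, myeloid cells among them, so its call was not independent of the filter. In neutrophils its difference of 2.23 ± 1.06 on 4 UMIs did not pass (adjusted p = 0.0754). Bid, which death-receptor caspases cleave, was higher in neutrophils by 3.71 ± 1.28 (edgeR adjusted p = 0.0119), or 4.87 relative to the median gene, a value that rests on 1 UMI in SP11 1 and 3 in SP11 2. Bid passed the filter on low counts through neutrophils alone, at 201 and 107 CPM in SP11 1 and SP11 2. The other classes stood at 19.3 CPM or less, so the call was not independent of the class where Bid is high. The pooled ratio of Bid was 19.3 with an exact interval of 5.2 to 50.6. Pmaip1, which codes for Noxa, had 21 UMIs in myeloid and 15 in tumor cells of the SP11 libraries, a pooled ratio of 99.5 (48.9 to 208). Bbc3, which codes for Puma, stood at 9.43 and 9.86 CPM in tumor cells and had 7 UMIs in myeloid cells, a ratio of 2.21 (0.879 to 4.63). These intervals cover counting error only. Without the shared barcodes 5 members could be tested, and 9 of their 10 calls in these classes were made again. Bax in B cells was lost (adjusted p = 0.120, edgeR) and Bcl2l11 in neutrophils was gained (0.0334).

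The levels of other cells' genes bear on these values. Erythroid hemoglobin genes held 4526 to 20504 CPM in the classes of the SP11 libraries and 183 to 1260 CPM in those of the controls, and keratins held 153 to 587 CPM in the immune classes of the SP11 libraries against 3300 and 3720 in tumor cells. Their part in the members' levels was not tested.

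Profiles most like those of 3 members over the 10 class sums of the SP11 libraries were sought among 7666 genes with at least 200 UMIs, on log2(CPM + 1). For Bcl2 they were Ppp3cc (Pearson r = 0.97), Caap1 (0.96) and C2cd3 (0.96). For Mcl1 they were Ptpn1 (0.97), Gnai2 (0.96) and Arpc3 (0.96), and for Bcl2a1b Cotl1 (0.98), Laptm5 (0.98) and Srgn (0.98). The sums share libraries and differ widely in depth, and the values are descriptions.

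The change with SP11 in tumor cells addresses whether the treated tumors shifted the balance of survival and death genes. Among the 9 members tested, 1 rose and none fell by edgeR's adjusted p, where 2.16% of 11549 genes were called. Bcl2a1b was that gene, and the next in size, Bcl2, Bcl2l1 and Bcl2l11, did not pass. CPM was higher in both SP11 libraries than in both controls for each of them and for Mcl1, Bak1 and Pmaip1. It was lower for Bid and overlapped for Bax and Bbc3. The share of all genes that separate in this way was not counted, so a lack of overlap is a description and no support for a change. Pmaip1 had too few UMIs for the test. CPM of the 13807 genes with at least 10 UMIs shifted upward with SP11 by a median of 0.13 (log2) before TMM scaling. The tests, which carry that scaling, are therefore the measure of change. With it Mcl1 and Bak1, higher in CPM, changed by -0.01 and -0.02.

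Bcl2 had 4.26 and 6.19 CPM in the controls and 7.63 and 8.92 in the SP11 libraries, from 41, 56, 89 and 104 UMIs. The groups do not overlap. The change was 0.54 ± 0.22 (log2, SE, edgeR adjusted p = 0.265), and none of the 14 alternative fits called it. Bcl2l1 had 57.7 and 38.4 CPM in the controls and 65.5 and 69.4 with SP11, with no overlap and with controls that lie further apart than Control 1 does from either treated library. Its change was 0.36 ± 0.16 (adjusted p = 0.324, edgeR), and without Control 1 it was 0.71 and passed (0.00583), whereas without Control 2 it was 0.08.

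Mcl1 had 106 and 103 CPM in the controls and 112 and 116 with SP11, a change of -0.01 ± 0.12 after TMM scaling (edgeR adjusted p = 0.984). Among the effectors, Bax had 218 and 196 CPM against 207 and 203, which overlap (-0.14 ± 0.13, adjusted p = 0.677, edgeR), and Bak1 had 15.4 and 14.8 against 15.6 and 17 (-0.02 ± 0.15, 0.971). Bcl2l11 had 11.9 and 11.8 CPM against 16.2 and 17 (0.36 ± 0.16, 0.311), with no overlap. Bbc3 had 9.36 and 9.73 against 9.43 and 9.86 (-0.11 ± 0.18, 0.835), and Bid 7.28 and 7.08 against 5.91 and 6.60 (-0.32 ± 0.20, 0.496). None of these passed.

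Bcl2a1b had 0.728 and 1.44 CPM in the controls and 5.06 and 3.17 with SP11, from 7, 13, 59 and 37 UMIs. All treated values lie above the controls, and the gene rose by 1.81 ± 0.40 (log2, SE, edgeR adjusted p = 0.0232). Control 1 lay below the limit of the filter on low counts, so the controls alone would not have brought the gene to the test. It passed with the help of the SP11 libraries, where it is high, and the call is not independent of that. The leukocyte gene Ptprc moved with it, with 4, 2, 74 and 50 UMIs in the same cells. Within each library the level of Bcl2a1b in tumor cells was 0.151%, 0.175%, 2.15% and 1.07% of its level in the pooled immune classes of Control 1, Control 2, SP11 1 and SP11 2, and that of Ptprc was 0.143%, 0.117%, 2.62% and 0.909%. Marker lists of the other classes also held more in tumor cells of the SP11 libraries, B genes 18.7 and 11.7 CPM against 0.728 and 1.44, and myeloid genes 20.3 and 9.26 against 6.14 and 5.42. In the tumor cells without any UMI of the immune genes (541, 248, 341 and 85 cells) Bcl2a1b had 0, 4, 4 and 1 UMIs and fell below the filter. Without the shared barcodes its change was 2.74 and passed. The call was lost without SP11 1 (1.38, edgeR adjusted p = 0.138), without Scrublet doublets (1.68, 0.111) and with DESeq2 (1.82, 0.111).

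Pmaip1 had 1 UMI in each control, 10 in SP11 1 and 5 in SP11 2, or 0.104, 0.111, 0.857 and 0.429 CPM. The pooled ratio was 6.0, with an exact interval of 1.40 to 54.1 for counting error only, and in tumor cells without immune UMIs it had 0, 0, 2 and 2 UMIs, or 0, 0, 0.717 and 1.33 CPM. Bcl2 had 4.25 and 4.18 CPM in the controls and 6.82 and 7.30 with SP11 in those cells, from 25, 17, 19 and 11 UMIs, a change of 0.66 that did not pass.

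**Figure D3:**
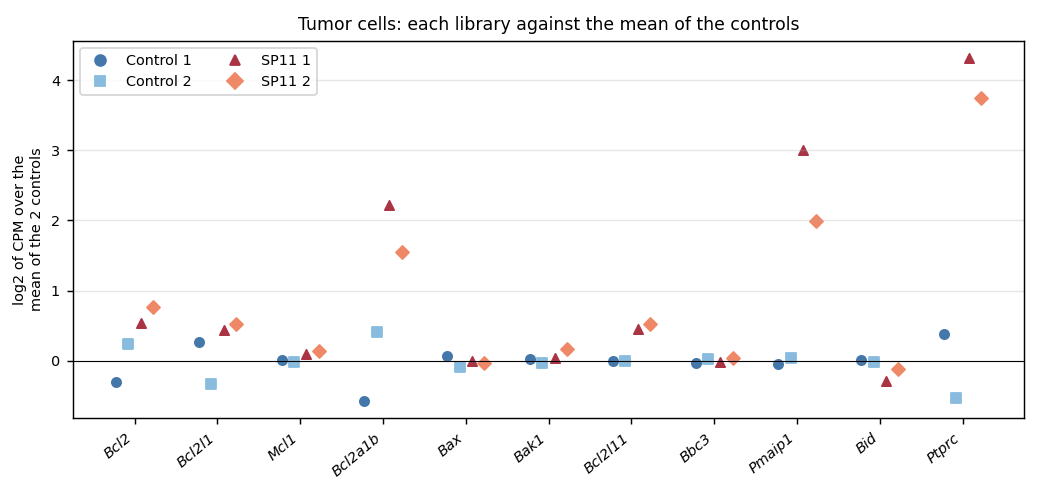
Level of each member in tumor cells of every library, as log2 of CPM over the mean of the 2 controls (vertical axis), with the leukocyte gene Ptprc at the right. Bcl2a1b, Pmaip1 and Ptprc stand apart from the other genes, whose points lie within about 1 unit of 0.

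In myeloid cells 3 members could be tested, and none was called where 6.53% of 1180 genes were. Mcl1 had 866 and 806 CPM in the controls and 568 and 1026 with SP11, so that the treated libraries lie on both sides of the controls (0.04 ± 0.30, edgeR adjusted p = 0.972). Bcl2a1b had 577 and 898 against 408 and 552, a change of -0.52 ± 0.32 (0.343), and Bax had 313 and 368 against 240 and 227, a change of -0.47 ± 0.40 (0.535). Of the members below the filter, Bcl2l11 had 2, 1, 14 and 37 UMIs in Control 1, Control 2, SP11 1 and SP11 2, or 48.1, 23.0, 124 and 172 CPM, and Bak1 had 2, 3, 11 and 21. With no filter Bcl2l11 differed by 2.28 and did not pass.

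Whether the change differed between the 2 classes was tested as an interaction over all 10 members, and 1 was called where 0.341% of 11156 genes were. The change of Bcl2a1b in myeloid cells was lower than that in tumor cells by -2.24 ± 0.54 (log2, SE, edgeR adjusted p = 0.0119), or -2.59 relative to the median gene. Leaving out any 1 library ended this call, with values of -2.03, -2.38, -1.49 and -2.88 without Control 1, Control 2, SP11 1 and SP11 2, as did leaving out the shared barcodes (-3.09), Scrublet doublets (-1.93) or tumor cells with immune UMIs (-1.61) and doubling the gates (-0.92). For Mcl1 the difference of the changes was 0.08 ± 0.31 (adjusted p = 1, edgeR), and for Bax -0.27 ± 0.40. The other members had SEs of 0.916 or more.

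Where the Bcl2 transcripts of a whole tumor come from is a matter of cell numbers as well as of levels. Tumor cells held 97.6% and 100% of the Bcl2 UMIs of gated cells in the controls and 92.7% and 69.3% in SP11 1 and SP11 2. The 2 groups do not overlap, and the treated libraries differ widely between themselves, with means of 98.8% ± 1.68 and 81.0% ± 16.5 (SD, n = 2 each). The difference was -17.8 percentage points (two-sided exact permutation test, p = 0.33, the smallest that 2 libraries against 2 allow). In SP11 2, 21 of the 150 gated UMIs lay in B cells and 24 in T cells, which made up 12.8% and 7.06% of kept cells but 1.88% and 0.591% of all UMIs. In SP11 1, 6 of 96 lay in B cells and none in T cells.

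**Figure D4:**
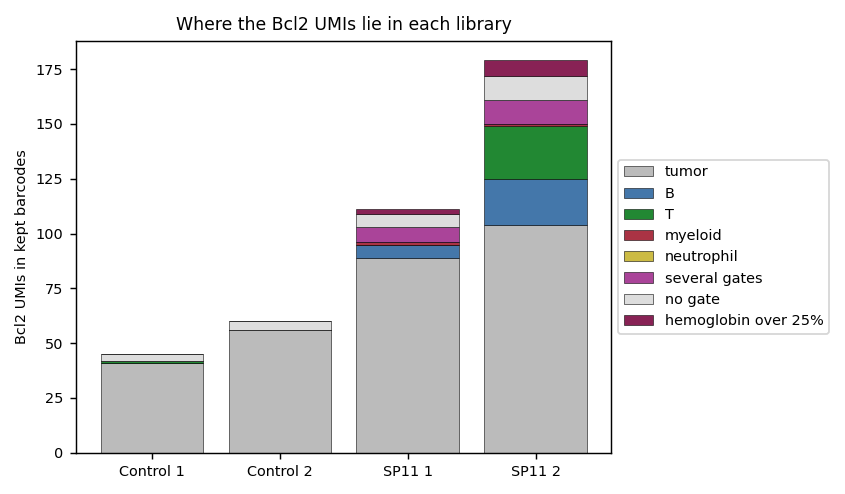
Bcl2 UMIs in kept barcodes of each library (vertical axis), stacked by the class that holds them. The tumor part grows from 41 and 56 UMIs in the controls to 89 and 104 with SP11, and the B and T parts are largest in SP11 2.

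Tumor cells were also divided by the cell cycle. Of the 3089 tumor cells, those with over 36.7 UMIs of 25 G2M genes per 10000 were called G2M-high, and the rest was divided at its median of 15.5 UMIs of 22 S genes per 10000 into S-high and low-cycle cells. These are ranges and not cell types, with 394 cells within 10% of the G2M limit and 320 within 10% of the S limit. In S-high against low-cycle cells none of 9 members was called where 14.3% of 9999 genes were, and in G2M-high cells 1 was called where 22% were.

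Bax was that gene and fell by 0.13 (SE 0.05, edgeR adjusted p = 0.0403), a small change with 230, 187, 205 and 210 CPM in low-cycle and 205, 199, 204 and 202 in G2M-high cells of Control 1, Control 2, SP11 1 and SP11 2. The libraries did not all move one way, since Control 2 was higher in G2M-high cells, and 5 of 13 alternative fits called it. Bcl2 had 2.39, 4.82, 5.37 and 9.43 CPM in low-cycle and 5.69, 8.38, 9.64 and 9.45 in G2M-high cells. All 4 libraries were higher, SP11 2 barely so, and the difference of 0.53 ± 0.22 did not pass (edgeR adjusted p = 0.0827). Of 12 alternative fits 1 called Bcl2. Mcl1 differed by 0.11 ± 0.06 (adjusted p = 0.202, edgeR) and Bcl2l1 by -0.13 ± 0.08 (0.284). The largest differences were those of Bcl2a1b, -0.81 ± 0.39 in G2M-high cells (edgeR adjusted p = 0.150) and -0.90 ± 0.41 in S-high cells (0.143). Neither passed, and 1 of 8 tested alternatives called it in G2M-high cells. S-high cells of both controls held 0 UMIs of Bcl2a1b.

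**Figure D5:**
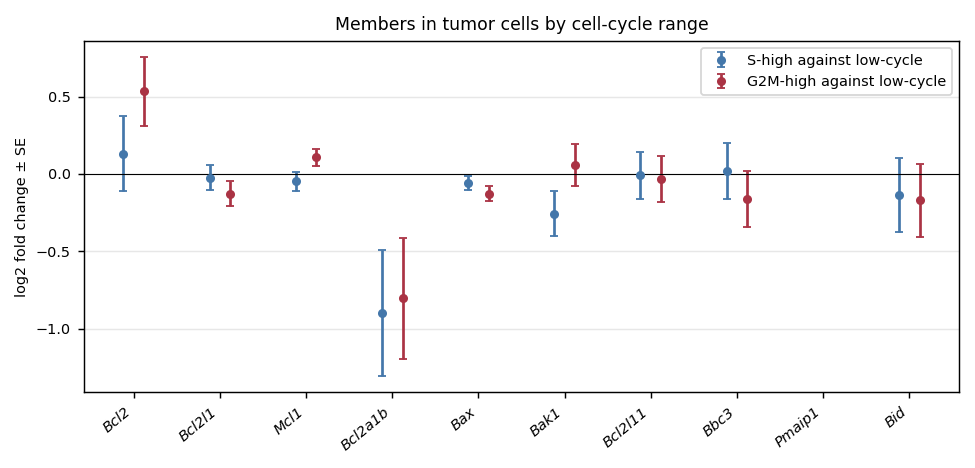
Log2 fold change of each member in S-high and in G2M-high tumor cells against low-cycle tumor cells (vertical axis), with standard errors as bars and 4 libraries as replicates. Bax in G2M-high cells is the call among them, and Pmaip1 has no point because it was not tested.

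Other family genes and the rest of the death machinery were counted from lists of 16 and 24 genes. With SP11 in tumor cells, 0 of 8 other family genes and 0 of 22 machinery genes tested were called by edgeR, with medians of -0.17 and -0.06 (log2) against -0.00444 for all genes, and 2.16% of all genes called. In myeloid cells 0 of 1 and 0 of 5 were called, where 6.53% of all genes were. At these shares a list of this size may well hold no call. Against tumor cells, Bnip3 and Bnip3l, mitophagy receptors and the 2 other family genes tested, were lower in all 4 immune classes as fitted. Relative to the median gene, Bnip3 was -3.66 in B, -1.54 in T, -1.18 in myeloid and -1.59 in neutrophil cells, with SEs of 0.58, 0.70, 0.41 and 1.16. Bnip3l was -1.18, -0.72, -0.51 and -0.81 on that scale, with SEs of 0.32, 0.47, 0.31 and 0.77, so that outside B cells it lies within 2 SEs of the median gene, as does Bnip3 in neutrophils. Of 10 machinery genes tested, 2 were higher and 6 lower in B cells, 0 and 6 in T cells, 2 and 5 in myeloid cells, and 1 and 4 in neutrophils, beside 59.5%, 43.1%, 62.6% and 44% of all genes called and the splits by scaling given above. Cycs, the cytochrome c of the mitochondrial pathway, was lower in each of these classes, by -2.66 ± 0.32 in B and -2.25 ± 0.32 in myeloid cells. Birc3, an inhibitor of apoptosis, was higher in B (3.87 ± 0.48), myeloid (3.32 ± 0.55) and neutrophil cells (5.19 ± 0.76). In the cycle ranges, Bad, a BH3-only gene, was lower in S-high (-0.29 ± 0.10) and G2M-high cells (-0.40 ± 0.10). Of 22 machinery genes, 3 were higher and 1 lower in S-high cells, and 1 was higher and 1 lower in G2M-high cells, beside 14.3% and 22% of all genes called. In G2M-high cells Birc5, higher by 1.33 ± 0.07, is itself on the list that set the range.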

How the data were processed

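Single-cell suspensions of 4 DLA tumor samples were profiled on the 10x Genomics 3′ platform. The deposited values are whole UMI counts for each gene in each barcode, 1 matrix per library, written by Cell Ranger 7.1.0 per the file headers and not normalized. The labels name mm10, the paper's text names hg38, and the annotation release is not given in the sources used here. Barcodes with at least 200 genes, at most 10% mitochondrial UMIs and under 25% hemoglobin UMIs were gated by marker UMIs (for example at least 5 of Krt8 and Krt18 and 10 per 10000 UMIs for tumor cells). Cells passing several gates (84) or none (439) were left out. Scrublet called 71 doublets, 0.217% to 3.63% per library, which were kept except in an alternative.

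UMIs were summed per library and class and tested with edgeR 4.0.16 (R 4.3.3): TMM, filterByExpr, quasi-likelihood test, Benjamini-Hochberg adjustment over all genes tested, threshold 0.05. SE is the absolute log2 fold change over the square root of F. No label says whether libraries came from separate mice, so p-values refer at most to the spread between libraries. edgeR draws the spread of each gene towards a value shared by all genes. In the class and interaction comparisons p lay near the normal tail of the log2 fold change over its SE. Those p-values thus rest almost wholly on the shared spread and do not measure each gene's own spread between libraries. Intervals are exact (Clopper-Pearson or Poisson) at 95%, a count of 0 is given as up to 3 counts, and both cover counting error only. The fits were also run on simulated data. Those gave every gene the same spread and libraries that differed in depth alone, unlike these data, so they lend the results no support. All 10 members are named, with at most 5 called genes of each further list and the 3 nearest profiles of Bcl2, Mcl1 and Bcl2a1b. The members and lists were chosen with earlier results of these data known. Alternatives were DESeq2 1.42.0, no filter, mitochondrial limit of 20%, 500 genes, doubled gate limits, Scrublet doublets left out, hemoglobin and immunoglobulin genes left out, the replicate number as a block, and each library left out. Another 3 were chosen after seeing the data, namely barcodes of more than 1 library left out, tumor cells with immune UMIs left out, and Lyz2 and Tyrobp added to the myeloid gate. Positions and transcript lengths came from GENCODE M21 (GRCm38).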

Additional observations from a re-analysis of the deposited data

Results flagged for a closer look

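The change of Bcl2a1b with SP11 differed between cell classes by a test of the difference itself, with a value of -2.24 (log2, myeloid minus tumor cells, edgeR adjusted p = 0.0119). Of 14 alternative fits 6 called it, and the value ranged from -3.09 to -0.92. Leaving out any 1 of the 4 libraries ended the call, with values between -2.88 and -1.49. In tumor cells the gene moved together with Ptprc, as given above, and their ratio was 1.75, 6.5, 0.797 and 0.740 in tumor cells against 1.67, 4.33, 0.971 and 0.629 in the pooled immune classes of Control 1, Control 2, SP11 1 and SP11 2.

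Barcodes that passed several gates numbered 1, 0, 60 and 23 in Control 1, Control 2, SP11 1 and SP11 2 and were used in no comparison. They held 7 of 111 Bcl2 UMIs in SP11 1 (6.31%) and 11 of 179 in SP11 2 (6.15%). The controls held 0 such UMIs, with hardly any such barcodes to hold them. These barcodes held 3.08% and 1.64% of all UMIs in SP11 1 and SP11 2.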

How the results depend on the processing

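The limits are the 2 libraries per group, the few myeloid, T and neutrophil cells, and low counts of Bcl2, Pmaip1 and Bid outside tumor cells. Equal replicate numbers gave no proof of pairing (correlation of their deviations 0.14 in tumor and 0.07 in myeloid cells, from 2 pairs). With the replicate block, 810 genes in place of 249 were called in tumor cells, Bcl2l1 among them (0.38, edgeR adjusted p = 0.0274), and 45 in place of 77 in myeloid cells, and it changed no other call of a member in these 2 comparisons. Genes called in tumor cells with SP11 numbered 120 with DESeq2, where Bcl2a1b was not called, 482 with no filter, 59 in tumor cells without immune UMIs, and 231 to 383 with 1 library left out (383 without Control 1). Bcl2a1b was called in 10 of 13 alternatives, adjusted p up to 0.138, and not without Scrublet doublets (1.68) or without SP11 1 (1.38). In myeloid cells DESeq2 called 32, doubled gates 10, and leaving out 1 library 3 to 66 (37 without Control 2, 42 without SP11 1, 3 without SP11 2). For the interaction the numbers were 4 with doubled gates, 21 without immune UMIs, 78 with Lyz2 and Tyrobp, and 0 to 24 in place of 38 with 1 library left out (24 without Control 1, 23 without Control 2). By edgeR the 0 without SP11 1 had 326 genes with unadjusted p under 0.05, and the 0 without SP11 2 had 268. Without shared barcodes 1477 genes in place of 2224 were called in B cells and 919 in place of 1609 in T cells, where doubled gates gave 976. For S-high cells DESeq2 called 794 and cells without immune UMIs 793 in place of 1429, and for G2M-high cells 1285 and 1156 in place of 2199. For Bcl2 in T cells, leaving out SP11 1 gave 4.41 and leaving out SP11 2 gave -3.43. Both are log2 CPM differences in 1 library without a fit, and the second is set by the small count added to 0 UMIs.

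Dividing by transcript length, which UMIs at the 3′ end do not call for, moved the mean share of Mcl1. It became 55.2% in tumor cells, 55.0% in B cells and 49.7% in neutrophils, where Mcl1 still led. In T cells it became 39.9% and in myeloid cells 24.5%, where Bcl2a1b led. In T cells the mean share of Mcl1 over libraries was 44.1%, a mean that gives the 3 UMIs of Control 1 full weight, and pooled over libraries Mcl1 and Bcl2 tied at 25 of 69 UMIs (36.2%). The mean was below that of another gene with at least 500 genes (32.6%), with doubled gates (29.2%) and without shared barcodes (23.6%). The difference in the tumor share of Bcl2 UMIs stayed negative in the alternatives run, between -29.5 points without SP11 1 and -6.10 without SP11 2. The causes were not tested.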
